A study of Mus musculus with 53 samples.

Results

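Expression of 9 genes that mark the projection neurons of the striatum was followed over 4 parts of the brain in SCA3 mice and wild-type mice. The genes were the dopamine receptors Drd1 and Drd2, the adenosine receptor Adora2a, the neuropeptide precursors Tac1, Pdyn and Penk, and the signalling genes Ppp1r1b, Rgs9 and Pde10a. They were chosen by symbol, as known markers of these cells, and 9 of 9 were among the 12372 genes of the count table. RNA was sequenced from 53 libraries of 14 male mice aged 74 to 77 weeks. The 8 wild-type mice were C57BL/6, and the 6 SCA3 mice were hemizygous for MJD84.2, a transgene with the whole human ATXN3 gene, its own promoter and an expanded CAG repeat, which is expressed throughout the body beside the mouse's own Atxn3. Striatum was represented by 8 wild-type and 5 SCA3 libraries, cortex and cerebellum by 7 and 6 each, and brainstem by 8 and 6, and the same mice gave several regions.

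Most neurons of the striatum are spiny projection neurons that release GABA, and they fall into a direct and an indirect pathway class. Direct pathway neurons project to the output nuclei of the basal ganglia, carry the D1 dopamine receptor (Drd1) and make substance P (from Tac1) and dynorphin (from Pdyn). Indirect pathway neurons project to the external globus pallidus, carry the D2 dopamine receptor (Drd2) and an adenosine receptor (Adora2a), and make enkephalin (from Penk). Both classes hold DARPP-32 (Ppp1r1b), a phosphoprotein switched by dopamine, RGS9 (Rgs9), which shortens G protein signals, and PDE10A (Pde10a), which breaks down cyclic nucleotides. The products of Drd1 and Adora2a raise cAMP and that of Drd2 lowers it, and cAMP acts on transcription through CREB, which binds a sequence called the cAMP response element (CRE).

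The direct pathway genes Tac1, Pdyn and Drd1 are shown with sequence from before their start sites, because Tac1 stood apart from the other genes in several of the comparisons that follow. The sequences are from RefSeq (GRCm38.p6), which gave a window of 250 bases before a start site for 6 of the 9 genes, with 9 windows in all. Both strands were searched for the CRE half-site TGACG, which reads CGTCA on the other strand. The Tac1 window held 2 half-sites, at -197 and -43 from the start, and none was found in the 8 windows of Pdyn, Drd1, Drd2, Rgs9 and Pde10a. At least 1 half-site was present in 17.8% of 32851 windows of that length. The full palindrome TGACGTCA, which holds the half-site on both strands, was present in 1.55% and in none of the 9 windows. Half-sites are in capitals, each stretch is read along the gene's own strand, and a match describes the letters alone. Bases annotated as exon are not shown, except for 30 bases around the second half-site of Tac1, which lies in the first exon of a longer Tac1 transcript. Pdyn and Drd1 each had another window that is not shown. The Pdyn stretch shown lies within the span of the gene given further below, before an inner start site. Its other window, chr2:129699939-129700188, lies upstream of that span.
Tac1, chr6:7554811-7554878, plus strand: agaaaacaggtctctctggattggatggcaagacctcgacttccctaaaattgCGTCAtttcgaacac
Tac1, chr6:7555006-7555035, plus strand: gctctacaggctCGTCAcgcctgagataaa
Pdyn, chr2:129698659-129698908, minus strand: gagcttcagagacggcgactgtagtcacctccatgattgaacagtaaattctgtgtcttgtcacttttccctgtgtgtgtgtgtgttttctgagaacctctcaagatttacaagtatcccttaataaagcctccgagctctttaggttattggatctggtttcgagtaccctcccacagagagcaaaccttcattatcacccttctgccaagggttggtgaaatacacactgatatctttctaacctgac
Drd1, chr13:54055706-54055908, minus strand: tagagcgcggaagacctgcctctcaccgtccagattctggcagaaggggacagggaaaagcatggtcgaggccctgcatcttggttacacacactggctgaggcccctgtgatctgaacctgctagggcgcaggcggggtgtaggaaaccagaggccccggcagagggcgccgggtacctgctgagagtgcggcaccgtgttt

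Library totals lay between 31.7 and 76.7 M counts (M for mega). Car8, a Purkinje cell gene, averaged 1620 CPM (the count relative to the normalised library total) in wild-type cerebellum and at most 27.2 in the other regions, and Slc17a7, the vesicular glutamate transporter of cortical neurons, averaged 1000 CPM in wild-type cortex. Mouse Atxn3 lay between 54.3 and 64.8 CPM in SCA3 striatum and between 40.1 and 53.7 CPM in wild-type striatum, and the groups overlapped in the other 3 regions. A pair of wild-type striatal libraries stood apart. The 11 measured genes of a thalamus list, such as Prkcd and Zic1, summed to 2765 CPM in mouse 7267059 and to 1765 in mouse 7267058, against 189.5 to 671 CPM in the other 6 wild-type and 195.6 to 485 CPM in the 5 SCA3 libraries. Those 2 libraries also had the highest sums for the 10 genes of mature oligodendrocytes, 19860 and 14440 CPM, against 6271 to 12600 CPM in the other 11. RNA integrity numbers (RIN) ranged from 6 to 9 in wild-type and from 5.7 to 8.3 in SCA3 striatum.

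In wild-type mice the 9 genes were highest in striatum, followed by cortex. Of these, 9 of 9 were called higher in striatum than in brainstem, where 32.7% of all genes were, and 9 of 9 higher than in cerebellum, where 35.3% were. Against cortex, 7 of 9 were called higher in striatum (16.8% of all genes), and the peptide genes Tac1 and Pdyn were not. A gene was called where the false discovery rate (FDR, the adjusted p of edgeR's likelihood ratio test over all 12372 genes) was below 0.05. With only the largest series of mouse numbers, which holds 4 of the 8 wild-type mice, the call against cortex was lost for Drd1 (FDR = 0.12), Drd2 (0.15), Penk (0.18) and Rgs9 (0.061). The median log2 fold change of the 9 genes was 4.17 over brainstem, 5.18 over cerebellum and 1.32 over cortex, beside medians over all genes of -0.0013, 0.0032 and -0.0018. Cortical levels differed widely between libraries, as for Rgs9, which ran from 59.1 to 502 CPM in wild-type cortex. Its lowest value was in mouse 7267058, whose library had the highest sum for cortical glutamatergic neuron genes among the wild-type cortices. The part of the dissected area in the cortical means was not tested. The genes are known for their striatal expression, so the differences among them are given in what follows.

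**Figure D1:**
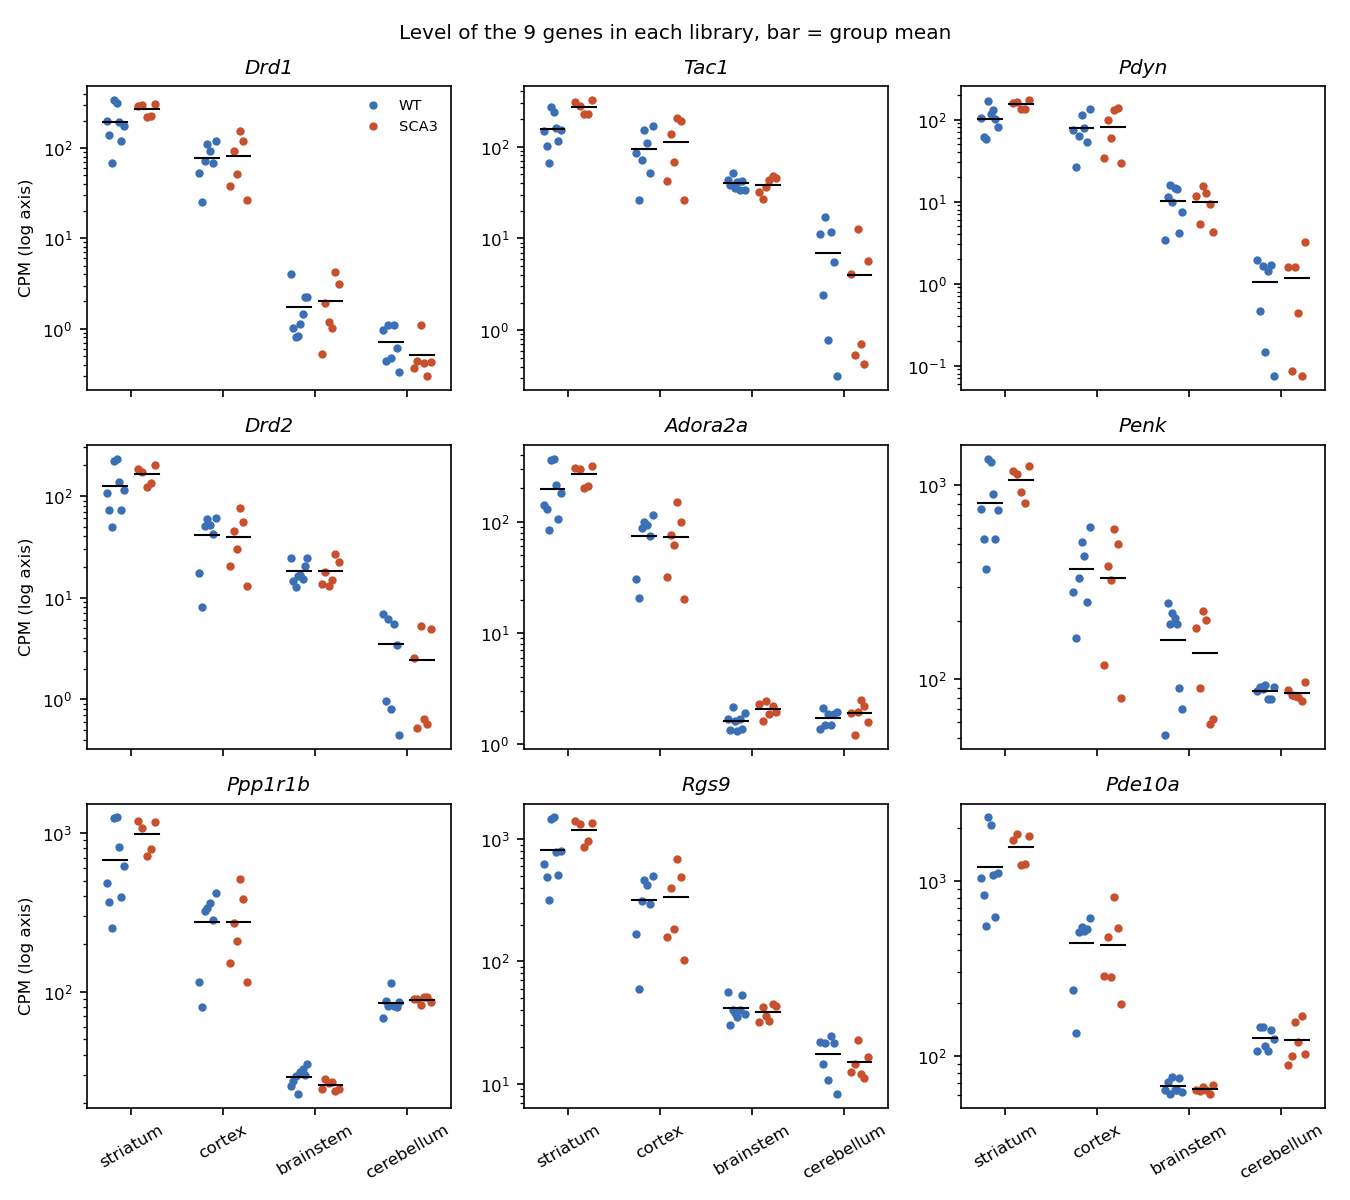
Level of each of the 9 genes (CPM, log axis) in every library of striatum, cortex, brainstem and cerebellum, with wild-type libraries in blue, SCA3 libraries in red and bars at the group means. Striatal means lie highest for each gene with cortex next, and in cerebellum Tac1 runs from 0.314 to 16.9 CPM while Penk stays between 77.5 and 97.4 CPM.

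The receptor genes Drd1 and Adora2a had the largest fold between the highest and the lowest wild-type mean of a region, at 269 and 122. Drd1 (chr13:54051183-54055705, minus strand) ranged in wild-type striatum from 68.8 CPM through a median of 183 to 342 CPM, and in wild-type cortex from 25.2 through 72.5 to 121 CPM. In wild-type brainstem it ranged from 0.806 through 1.29 to 4.01 CPM and in wild-type cerebellum from 0.332 through 0.613 to 1.1 CPM. The groups of libraries from striatum and cortex overlapped, while those from brainstem and cerebellum lay far below both. Striatum and brainstem differed by 6.81 ± 0.37 on the log2 scale (SE, FDR = 3.56e-44), striatum and cortex by 1.32 ± 0.38 (FDR = 0.0041), and brainstem and cerebellum by 1.26 ± 0.40 (FDR = 0.0030). The last of these was not called with limma-voom (FDR = 0.077). Adora2a (chr10:75316877-75334784, plus strand) ranged from 84.4 to 371 CPM (median 162) in wild-type striatum and from 20.6 to 116 (median 87.7) in wild-type cortex. On its low side it ranged from 1.31 to 2.14 CPM in wild-type brainstem and from 1.38 to 2.09 in wild-type cerebellum. Those last neighbours in its order did not differ beyond their spread (log2 difference -0.09 ± 0.31, FDR = 0.79).

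Drd2 (chr9:49340627-49408177, plus strand) differed less between striatum and brainstem than Drd1 and Adora2a did. It ranged from 49.2 to 233 CPM (median 111) in wild-type striatum, from 8.05 to 60.5 (median 51.1) in cortex, from 12.8 to 24.7 (median 16.5) in brainstem and from 0.443 to 6.97 (median 3.45) in cerebellum. Its difference between striatum and brainstem was 2.79 ± 0.44 on the log2 scale (FDR = 1.47e-08), beside 6.81 for Drd1 and 6.93 ± 0.29 for Adora2a (FDR = 1.06e-73). Between striatum and cortex its difference was 1.6 ± 0.45 (FDR = 0.0037), beside 1.32 ± 0.38 for Drd1 and 1.41 ± 0.30 for Adora2a. Outside the striatum, dopamine neurons of the midbrain are known to carry D2 receptors.

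Of the peptide genes, Tac1 differed least between striatum and brainstem. Tac1 (chr6:7554879-7565834, plus strand) ranged from 66.4 to 272 CPM (median 149) in wild-type striatum, from 26.4 to 167 (median 85.2) in cortex, from 33.4 to 51.6 (median 39.3) in brainstem and from 0.314 to 16.9 (median 5.53) in cerebellum. Striatum and cortex did not differ for it beyond the spread (log2 difference 0.72 ± 0.52, FDR = 0.30). Pdyn (chr2:129686565-129699844, minus strand) ranged from 57.7 to 167 CPM (median 104) in wild-type striatum, from 26.2 to 136 (median 74.0) in cortex, from 3.44 to 16.1 (median 10.6) in brainstem and from 0.0739 to 1.93 (median 1.42) in cerebellum. Its difference between striatum and cortex was 0.40 ± 0.49 (FDR = 0.57), and its lowest library, a wild-type cerebellum, held 4 counts.

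Penk (chr4:4133531-4138819, minus strand) ranged from 371 to 1369 CPM (median 749) in wild-type striatum, from 163 to 608 (median 334) in cortex, from 51.6 to 248 (median 193) in brainstem and from 78.8 to 93.9 (median 89.6) in cerebellum. It was called between striatum and cortex, at 1.15 ± 0.33 on the log2 scale (FDR = 0.0034). Over the wild-type cerebellar libraries its highest value was 1.19 times its lowest, while that ratio was 53.9 for Tac1. In its exons 157 bases are overlapped by A830012C17Rik on the other strand, and the counting did not use strand.

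The signalling genes Ppp1r1b and Pde10a had another order at the low end. Ppp1r1b (chr11:98348404-98357796, plus strand) ranged from 252 to 1256 CPM (median 554) in wild-type striatum, from 79.8 to 422 (median 321) in cortex, from 68.7 to 113 (median 81.5) in cerebellum and from 22.7 to 34.8 (median 29.6) in brainstem. Brainstem was lowest without overlap, at -1.55 ± 0.27 on the log2 scale against cerebellum (FDR = 5.28e-08). Pde10a (chr17:8525372-8986648, plus strand) had the same order, with wild-type means of 1202 CPM in striatum, 440.3 in cortex, 127 in cerebellum and 67.0 in brainstem, and differed by -0.92 ± 0.25 between brainstem and cerebellum (FDR = 0.00051). Rgs9 (chr11:109225355-109298129, minus strand) was lowest in cerebellum, with wild-type means of 809 CPM in striatum, 317 in cortex, 41.2 in brainstem and 17.5 in cerebellum. Of the exon bases of Ppp1r1b, 164 are overlapped by 1700003D09Rik on the other strand.

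Among the other regions, 9 of 9 genes were called higher in cortex than in brainstem (34.3% of all genes) and 9 of 9 higher in cortex than in cerebellum (35.5%). Between brainstem and cerebellum, 6 of 9 were called higher in brainstem (37.6%) and Ppp1r1b and Pde10a higher in cerebellum (35.0%). Of the 6, Drd1 (FDR = 0.077) and Penk (FDR = 0.066) were not called with limma-voom, nor was Penk in the largest series of mouse numbers (FDR = 0.18). With the mouse as a fixed replicate block, the calls between cortex and brainstem were lost for Tac1 (FDR = 0.074) and Drd2 (FDR = 0.068), and that of Tac1 was also lost without mouse 9083371, 9083372 or 9083375 (FDR from 0.062 to 0.077). Genes can be set beside each other only per length, and on that scale Penk was highest in wild-type striatum with 561 ± 252 CPM per kilobase of exon (SD, n = 8), followed by Ppp1r1b with 264 ± 153. Rgs9, Pde10a and Tac1 had nearly equal levels of 133 ± 72.5, 132 ± 71.6 and 127 ± 56.0 CPM per kilobase. Adora2a (76.4 ± 42.4), Drd1 (54.1 ± 26.1), Drd2 (49.4 ± 26.8) and Pdyn (43.1 ± 15.3) were lowest on this scale. After the step from Penk to Ppp1r1b, each gene lay within 1 SD of the gene above it.

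To ask whether mutant ataxin-3 altered these genes, the genotypes were compared region by region. In striatum the SCA3 mean was above the wild-type mean for 9 of 9 genes, by 1.30-fold (Drd2) to 1.74-fold (Tac1), but 0 of 9 were called, beside 7.54% of all genes in either direction. The FDR of the 9 genes lay between 0.25 and 0.68, and the unadjusted p of edgeR's test was below 0.05 for 0 of 9 genes and for 2874 of all genes. The F test of edgeR, DESeq2 and limma-voom also called 0 of 9. Their median log2 fold change was 0.47, and that of all genes -0.0031. The SCA3 and wild-type libraries overlapped for 9 of 9 genes, while 0.655% of all genes did not overlap. The wild-type libraries spread 2.89-fold to 4.97-fold between their highest and lowest value, and the SCA3 libraries 1.30-fold to 1.68-fold.

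Tac1, the substance P precursor, had the largest fold change of the 9 genes in striatum. The 5 SCA3 libraries were at 225, 228, 279, 305 and 323 CPM, and the 8 wild-type libraries ranged from 66.4 through a median of 149 to 272 CPM. All SCA3 values were above the wild-type median, 6 of 8 wild-type libraries lay below every SCA3 library, and the 2 highest wild-type libraries lay among the SCA3 values. The log2 fold change was 0.80 ± 0.57 (SE, FDR = 0.395). Pdyn, the dynorphin precursor, was at 134, 134, 161, 164 and 174 CPM in SCA3 striatum and at 57.7 to 167 CPM in wild-type, with 7 of 8 wild-type libraries below every SCA3 library. Its log2 fold change was 0.58 ± 0.54 (FDR = 0.54).

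Penk, the enkephalin precursor, was at 804, 926, 1145, 1177 and 1250 CPM in SCA3 striatum and at 371 to 1369 CPM in wild-type. For Penk 2 wild-type libraries exceeded every SCA3 library and 5 lay below all of them, with a log2 fold change of 0.38 ± 0.36 (FDR = 0.54). The same pair of wild-type libraries, mice 9082857 and 9083371, exceeded every SCA3 library for Drd1, Drd2, Adora2a, Rgs9, Pde10a and Ppp1r1b as well. Drd1 was at 219, 226, 291, 296 and 308 CPM in SCA3 striatum, which gave a log2 fold change of 0.47 ± 0.42 (FDR = 0.51). Drd2 was at 124, 133, 172, 184 and 203 CPM, which gave 0.37 ± 0.50 (FDR = 0.68). Adora2a was at 203, 211, 298, 303 and 319 CPM, which gave 0.43 ± 0.33 (FDR = 0.43). The receptor genes of both pathways thus had SCA3 values between the low and the high end of the wild-type values.

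Of the shared signalling genes, Ppp1r1b had the smallest FDR of the 9 genes. It was at 714, 792, 1076, 1176 and 1197 CPM in SCA3 striatum and at 252 to 1256 CPM (median 554) in wild-type, with a log2 fold change of 0.54 ± 0.30 (FDR = 0.25). Rgs9 ranged from 864 to 1395 CPM in SCA3 and from 317 to 1500 CPM in wild-type (0.55 ± 0.35, FDR = 0.34). Pde10a ranged from 1230 to 1848 CPM and from 549 to 2307 CPM (0.38 ± 0.28, FDR = 0.40). With these standard errors, 95% intervals reached from -0.61 to 1.36 for Drd2 and from -0.046 to 1.13 for Ppp1r1b, so that differences within those bounds were not excluded.

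**Figure D2:**
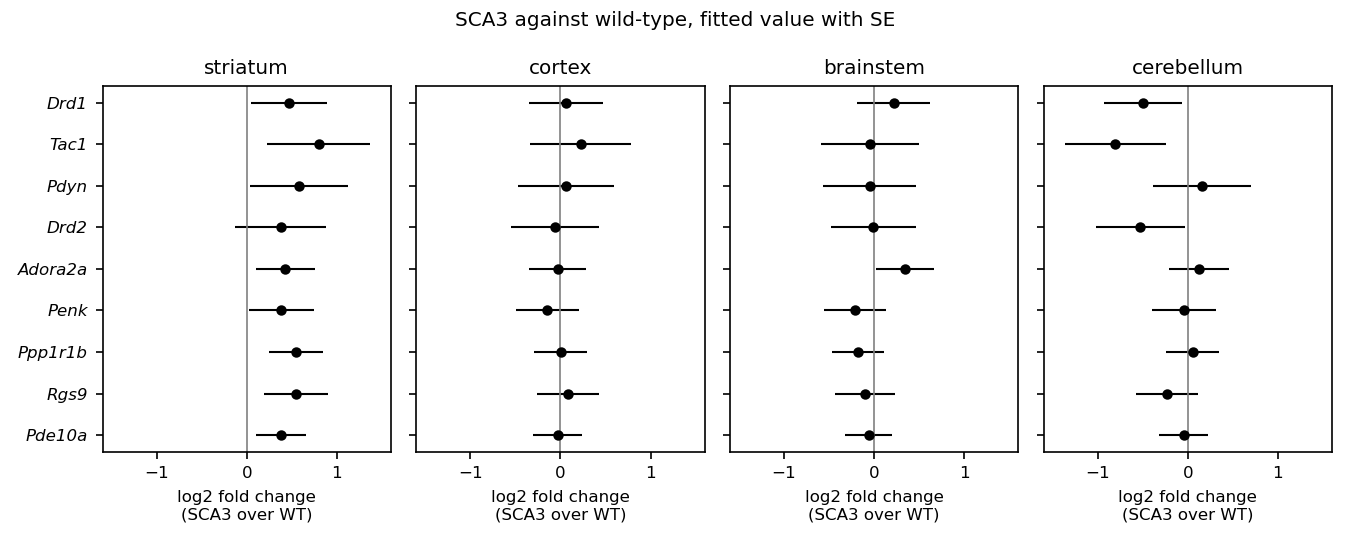
Log2 fold change of SCA3 over wild-type with its SE for the 9 genes in each region. In striatum 9 of 9 points lie between 0.37 and 0.80, and in cortex, brainstem and cerebellum they lie on both sides of 0, and none was called.

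In the other regions the 9 genes moved in no common direction and 0 of 9 were called. In cortex (0.154% of all genes called) 5 of 9 were higher and 4 lower, with log2 fold changes from -0.15 for Penk to 0.22 for Tac1. In brainstem (1.92% called) 2 of 9, Adora2a and Drd1, were higher, and values ran from -0.21 for Penk to 0.34 for Adora2a. In cerebellum (0.0647% called) 3 of 9 were higher, and values ran from -0.80 for Tac1 to 0.16 for Pdyn. Single mice weighed on these values: cerebellar Tac1 was at -1.6 without SCA3 mouse 9082853 and at -0.41 without wild-type mouse 9082857, and brainstem Penk was at -0.42 without SCA3 mouse 9082853 and at -0.061 without SCA3 mouse 9083515 or 9083514, none of them called. Whether the genotype effect differed between regions was tested by the interactions, and 0 of 9 genes were called (0.218% of all genes), with FDRs from 0.84 for Tac1 to 0.99 for Pdyn. The opposite directions of Tac1 in striatum and cerebellum were therefore within the spread. Unadjusted p-values of edgeR's test were below 0.05 for 0 of 9 genes in each of these regions, and for 503, 1640 and 205 of all genes in cortex, brainstem and cerebellum.

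The 9 genes varied together over the striatal libraries. Wild-type mouse 7267059 was lowest of the 13 libraries for 9 of 9 genes, and mice 7267058 and 9083373 were among the lowest 3 for 9 and 8 genes. The highest value belonged to wild-type mouse 9083371 for 4 genes, to wild-type mouse 9082857 for 3 and to SCA3 mouse 9083515 for 2. After removal of the genotype means, each gene correlated with the mean of the other 8 over the 13 libraries, with Pearson r from 0.83 (Pdyn) to 0.99 (Drd2). In bulk tissue, fewer projection neurons in a sample and less RNA of these genes per neuron cannot be told apart.

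Levels of thalamus markers ran opposite to those of the members in the libraries at both ends. Mean log2 CPM of the 9 genes was 7.11 in mouse 7267059 and 7.68 in mouse 7267058, the libraries with the highest thalamus sums, and 9.17, 9.08, 9.08 and 9.02 in wild-type mice 9082857 and 9083371 and SCA3 mice 9083515 and 7267054, whose thalamus sums were 189.5, 203, 197 and 195.6 CPM. Mouse 9083373, with a low mean of 7.70, had a thalamus sum of 671 CPM. Of the 11 thalamus genes measured, 7 were called lower in SCA3 striatum and 0 higher (7.54% of all genes in either direction), among them Prkcd (log2 fold change -3.47 ± 0.50, FDR = 4.18e-06), Zic1 (-2.17 ± 0.50), Rgs16 (-2.22 ± 0.54) and Ntng1 (-1.41 ± 0.38). The part of these markers in the members' levels was not tested beyond the fits that follow. Without the 2 wild-type libraries of the highest thalamus sums, 0 of 9 genes were called, beside 289 of all 12372 genes, and the log2 fold changes of the 9 lay between 0.15 (Drd2) and 0.59 (Tac1).

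**Figure D3:**
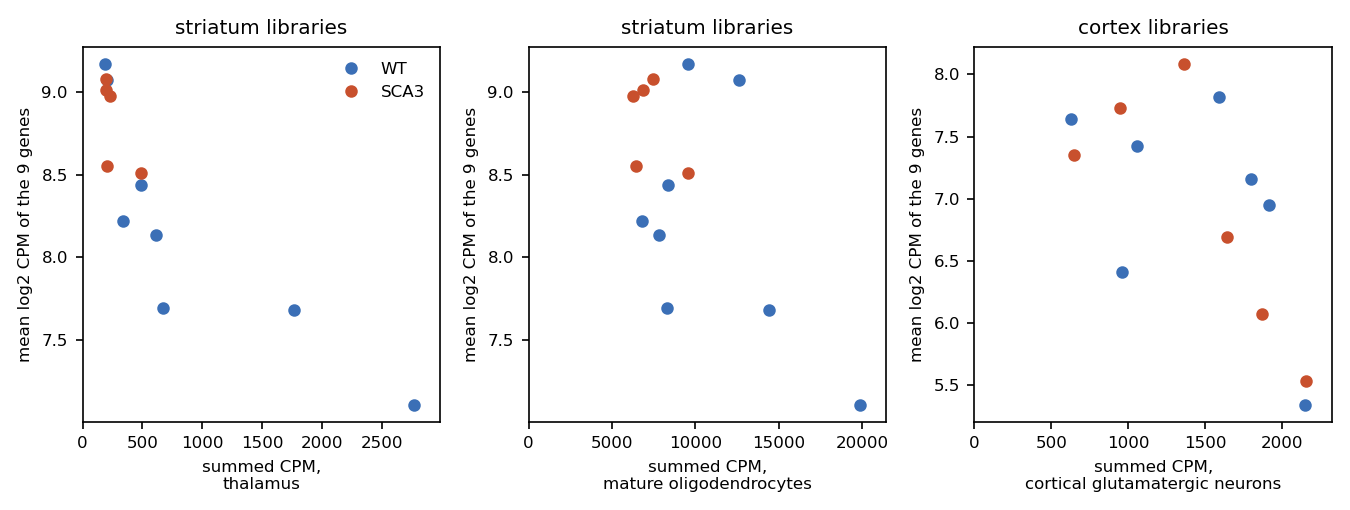
Mean log2 CPM of the 9 genes in each library against the summed CPM of thalamus genes and of mature oligodendrocyte genes in striatum (left and middle) and of cortical glutamatergic neuron genes in cortex (right), with wild-type in blue and SCA3 in red. The 2 wild-type striatal libraries with thalamus sums of 1765 and 2765 CPM have means of 7.68 and 7.11, and the cortical libraries with the highest glutamatergic sums, 2148 and 2154 CPM, have the lowest means, 5.34 and 5.54.

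Direct and indirect pathway genes were then compared within each library, where the number of projection neurons in the sample weighs on both. The log2 ratio of Tac1 to Penk was -1.82, -1.95, -1.95, -2.04 and -2.04 in the 5 SCA3 striatal libraries. In the 8 wild-type libraries it was lowest at -2.49, with a median of -2.37, and highest at -2.20. The groups did not overlap, and the SCA3 mean of -1.96 ± 0.09 (SD, n = 5) was 0.42 above the wild-type mean of -2.38 ± 0.10 (SD, n = 8), a 1.34-fold higher ratio. Against Penk as the common denominator, 0.113% of the other 12371 genes did not overlap between the groups, beside 0.655% of all genes by level. Penk spread 3.69-fold over the wild-type libraries, and a gene that does not vary with Penk takes on that spread in the ratio. The share therefore cannot say how rare such a ratio is among genes that vary with Penk. Leaving out each mouse in turn moved the difference between the group means of Tac1 to Penk between 0.38 and 0.44, and without the 2 libraries of the highest thalamus sums it was 0.40.

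The other direct to indirect ratios overlapped. The log2 ratio of Drd1 to Drd2 was 0.73 ± 0.09 (SD, n = 5) in SCA3 and 0.65 ± 0.18 (SD, n = 8) in wild-type striatum, ranging from 0.60 to 0.82 and from 0.44 to 0.93. That of Pdyn to Penk was -2.78 ± 0.11 in SCA3 and -2.94 ± 0.35 in wild-type, ranging from -2.87 to -2.58 and from -3.49 to -2.37. The mean of Drd1, Tac1 and Pdyn less the mean of Drd2, Adora2a and Penk was -0.67 ± 0.08 in SCA3 and -0.86 ± 0.22 in wild-type, with every SCA3 value inside the wild-type range of -1.23 to -0.51. Of the 36 ratios that the 9 genes can form, 2 did not overlap, and both held Tac1, while over all pairs of the 12372 genes 0.751% of ratios did not overlap. The second was Tac1 to Drd2, at 0.67 to 0.87 in SCA3 and 0.03 to 0.67 in wild-type, with the groups nearly touching, and against Drd2 as the common denominator 0.0647% of the other genes did not overlap. That share has the same limit as the share against Penk, since Drd2 spread 4.73-fold over the wild-type libraries.

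**Figure D4:**
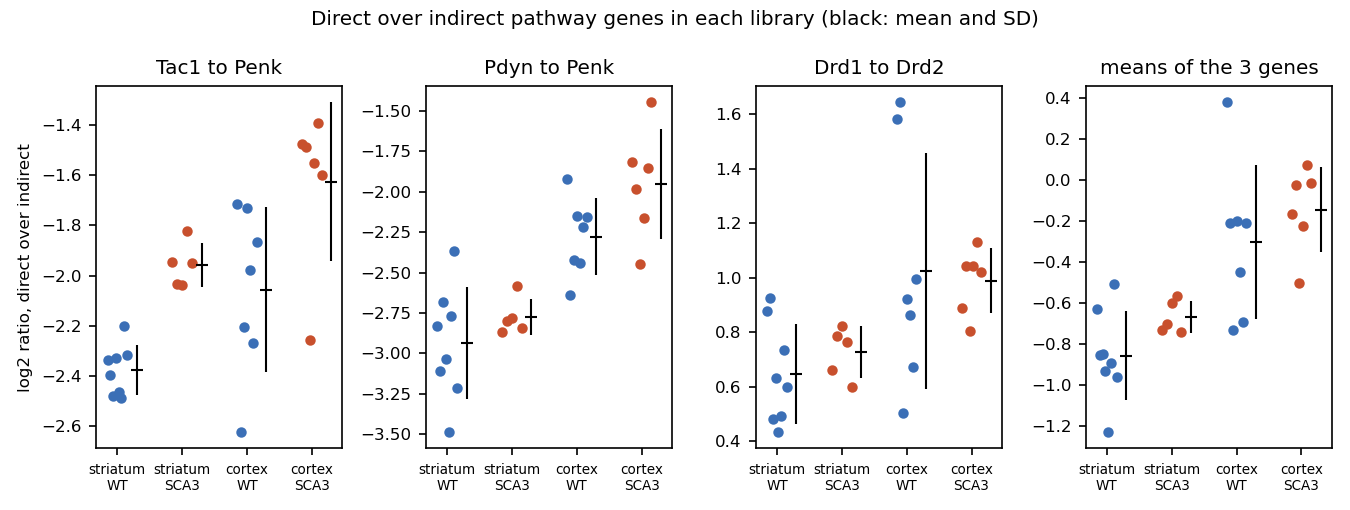
Log2 ratios of direct over indirect pathway genes in each striatal and cortical library, wild-type in blue and SCA3 in red, with mean and SD in black beside each group; the last panel is the mean of Drd1, Tac1 and Pdyn less the mean of Drd2, Adora2a and Penk. The Tac1 to Penk ratio of the 5 SCA3 striatal libraries (-2.04 to -1.82) lies above that of the 8 wild-type libraries (-2.49 to -2.20), and the other striatal ratios overlap.

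In cortex the Tac1 to Penk ratio pointed the same way by a like amount, with overlap. It averaged -1.63 ± 0.32 (SD, n = 6) in SCA3 and -2.06 ± 0.33 (SD, n = 7) in wild-type, a difference of 0.43. The SCA3 libraries ranged from -2.26 through a median of -1.52 to -1.39 and the wild-type libraries from -2.62 through -1.98 to -1.72. A single SCA3 library, mouse 9082853 at -2.26, lay among the wild-type values, and the other 5 lay above all of them. The cortical log2 fold change was 0.22 ± 0.56 for Tac1 and -0.15 ± 0.35 for Penk, neither called and each smaller than its SE. With a projection neuron score, described below, they were at 0.06 ± 0.30 and -0.27 ± 0.24. The part of each gene in the ratio was not tested. The Pdyn to Penk ratio in cortex also averaged higher in SCA3, at -1.95 ± 0.34 (SD, n = 6) against -2.28 ± 0.24 (SD, n = 7), with overlap.

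Tac1 was also set against other projection neuron genes that were not among the 9. Their score, the mean standardised log2 CPM of 22 other genes known from both classes such as Bcl11b, entered a fit of the 13 striatal libraries as a covariate, which was added after the data had been seen. With it, 1 of 9 genes, Tac1, was called (0.267% of all genes), at a log2 fold change of 0.38 ± 0.08 and FDR = 0.00074, and it was called in 13 of 13 fits that left out a mouse (FDR from 0.00013 to 0.017). The quasi-likelihood F test of edgeR, the stricter test, gave FDR = 0.056. The fold changes of the other 8 genes lay between -0.11 (Drd2) and 0.26 (Pdyn). With a thalamus score as the covariate instead, Tac1 was again the 1 of 9 called (0.994% of all genes), at 0.51 ± 0.15 and FDR = 0.049, while the other 8 genes lay between 0.052 (Drd2) and 0.34 (Pdyn). In the fit of all libraries without a covariate those 8 lay higher, as for Drd2 (0.37), Pde10a (0.38), Penk (0.38) and Adora2a (0.43), which were at 0.052, 0.10, 0.12 and 0.13 with the thalamus score. The Tac1 call was lost with the F test (FDR = 0.20) and in all but 4 of 13 fits that left out a mouse, in which the FDR ranged from 0.0023 to 0.36. Pdyn was also called in 1 of those 13 fits, the one without wild-type mouse 9082857 (0.44, FDR = 0.029). That fit called 463 of all genes, against 123 in the fit of all 13 libraries. In cortex, the same projection neuron score left Tac1 at 0.06 ± 0.30 and Penk at -0.27 ± 0.24, and none of the 9 was called, beside 42 of all 12372 genes.

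Genes around the members in the same pathways were taken from fixed lists. Of 30 genes between dopamine receptors and cAMP, 20 were higher and 10 lower in SCA3 striatum with a median log2 fold change of 0.22, and 2 were called, both lower, beside 7.54% of all genes called in either direction, a share near that of the list. These were Gnas, the stimulatory G protein subunit, which fell by 0.69 ± 0.15 on the log2 scale (FDR = 0.00079), and Prkaca, a catalytic subunit of protein kinase A, which fell by 0.26 ± 0.08 (FDR = 0.020). Gnas averaged 924 ± 285 CPM in wild-type and 574 ± 135 CPM in SCA3 striatum. Of the 10 measured genes of peptide processing and peptide receptors, 0 were called, and Cpe, which trims peptide precursors, had the highest level (2170 and 1900 CPM, log2 fold change -0.19 ± 0.16, FDR = 0.47). Adora1, the A1 adenosine receptor and the one other dopamine or adenosine receptor measured of 6 listed, averaged 124 and 135 CPM (0.13 ± 0.17, FDR = 0.69).

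Other projection neuron genes mostly lay in the same direction as the 9. Of 22 genes known from both classes, 20 were higher and 2 lower in SCA3 striatum with a median of 0.42, and the 1 called was lower: Adcyap1r1, the PACAP receptor, fell by 0.45 ± 0.12 (FDR = 0.011). It averaged 319 CPM in wild-type striatum and 379 CPM in wild-type brainstem, so that it is not restricted to striatum in these data. Of 5 other direct pathway genes 4 were higher and of 2 other indirect pathway genes 2, and none was called. By level in wild-type striatum the leading genes of these lists were Sfxn1 (67.7 CPM, log2 fold change -0.07 ± 0.13, FDR = 0.80), just above Chrm4 at 65.4 CPM, and Grik3 (194 CPM, 0.04 ± 0.13, FDR = 0.89). In SCA3 striatum Chrm4, a muscarinic receptor, averaged 81.7 CPM and Sfxn1 64.6 CPM.

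Glial lists went the other way. The counts called in these lists stand beside 7.54% of all genes called in either direction. Of 10 astrocyte genes 10 were lower in SCA3 striatum and 5 were called, with a median of -0.34, among them Ndrg2 (-0.44 ± 0.10, FDR = 0.0020), Gja1 (-0.47 ± 0.11), Aldh1l1 (-0.34 ± 0.08) and Gjb6 (-0.59 ± 0.19). Of 10 genes of mature oligodendrocytes 10 were lower and 4 called, with a median of -0.39, among them Mal (-0.80 ± 0.19, FDR = 0.0033), Mobp (-0.81 ± 0.21) and Cldn11 (-0.67 ± 0.18). The summed CPM over astrocyte genes was 4611 to 5198 in SCA3 and 4747 to 6552 in wild-type striatum, and over oligodendrocyte genes 6271 to 9550 and 6809 to 19860. The sum of 19860 belonged to mouse 7267059, the library with the highest thalamus sum, and its part in the glial differences was not tested. Of 8 general neuronal genes 4 were higher and 4 lower, and Stmn2 was called lower (-0.60 ± 0.17, FDR = 0.015). No gene was called among 6 of striatal interneurons, 5 of cortical glutamatergic neurons, 4 of oligodendrocyte precursors, 9 of microglia, 9 of endothelium, 3 of choroid plexus and 3 of cerebellar neurons, whose highest by level in wild-type striatum were Sst, Slc17a7, Pdgfra, Csf1r, Flt1, Ttr and Car8, with FDRs from 0.69 to 0.94.

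Cortical libraries held the 9 genes at levels that varied more than the genotypes did. Drd2 ranged from 8.05 to 60.5 CPM in wild-type and from 13 to 75.3 CPM in SCA3 cortex, and Rgs9 from 59.1 to 502 and from 103 to 681 CPM. Wild-type mouse 7267058 and SCA3 mouse 9083515 were among the lowest 3 libraries for 9 of 9 genes, and the library of SCA3 mouse 9083513 was highest for 7 of 9 genes. The summed CPM of the 5 measured genes of cortical glutamatergic neurons was 2148 in mouse 7267058 and 2154 in mouse 9083515, the 2 highest sums of the 13 libraries, and 1365 in mouse 9083513. The 2 lowest sums, 626 and 650.1 CPM, belonged to wild-type mouse 9083371 and SCA3 mouse 7267056, where Rgs9 was at 463 and 397 CPM. The part of the dissected area in these levels was not tested.

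In brainstem the Penk levels fell into a low and a high range. Penk lay between 51.6 and 90.5 CPM in wild-type mice 7267055, 9083373 and 9083375 and SCA3 mice 7267056, 9083514 and 9083515, and between 184 and 248 CPM in the other 8 libraries, with none between. Drd2 was at 24.7, 20.6, 24.7, 17.9, 26.9 and 22.5 CPM in those 6 libraries, in the same order, and at most 16.8 CPM in the other 8. Drd1 was at 4.01, 2.25, 2.26, 1.91, 4.24 and 3.15 CPM in them and at most 1.46 CPM in the others, so that Penk went opposite to both dopamine receptors. Adora2a, which marks the same striatal class as Penk and Drd2, stayed between 1.31 and 2.43 CPM over all 14 libraries. Each side held 3 SCA3 libraries. The summed CPM of the thalamus list was 1037, 914, 586, 698, 970.3 and 1059 in the 6 libraries and 562 to 780 CPM in the others, and its part was not tested.

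**Figure D5:**
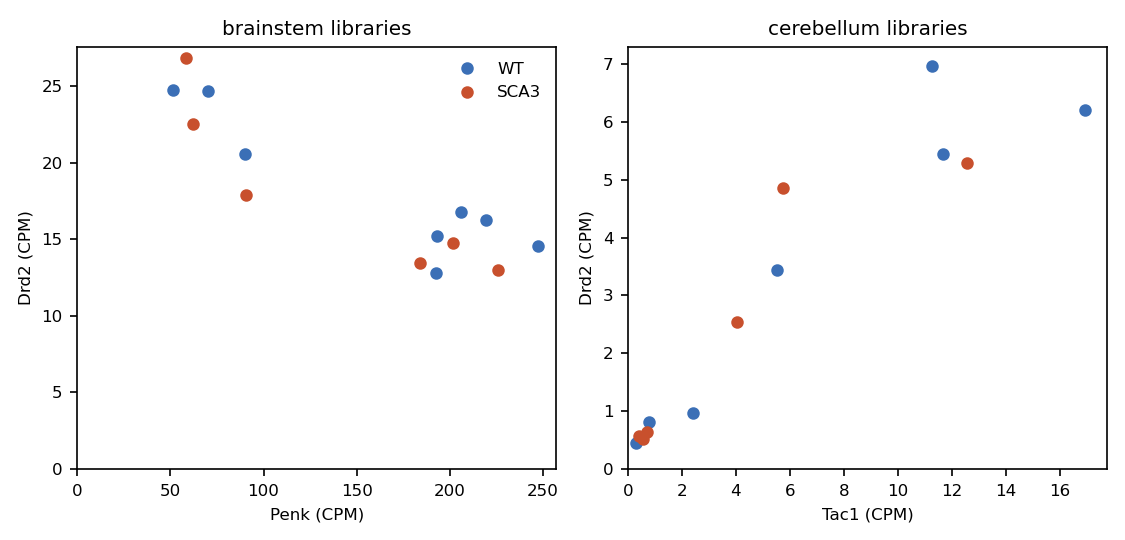
Drd2 against Penk in the 14 brainstem libraries (left) and Drd2 against Tac1 in the 13 cerebellar libraries (right), in CPM on linear axes, wild-type in blue and SCA3 in red. In brainstem the 6 libraries with Penk up to 90.5 CPM have Drd2 from 17.9 CPM upward, and in cerebellum Drd2 and Tac1 rise together, with some libraries at levels in between.

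Cerebellar libraries differed in Tac1, Drd2, Pdyn and Drd1. Tac1 was between 0.314 and 0.788 CPM in wild-type mice 9083371 and 9083375 and SCA3 mice 7267056, 9083513 and 9083514, and reached 16.9, 11.7 and 11.3 CPM in wild-type mice 9082857, 9083372 and 7267055 and 12.6 CPM in SCA3 mouse 9082853. Drd2 was between 0.443 and 0.806 CPM in the first 5 libraries and at 6.20, 5.45, 6.97 and 5.29 CPM in the last 4. Pdyn was between 0.0739 and 0.433 CPM in the first 5 and between 1.42 and 1.93 CPM in the last 4. Drd1 was between 0.296 and 0.476 CPM and between 0.964 and 1.1 CPM in the same libraries. Rgs9 was between 8.27 and 14.5 CPM and between 21.5 and 24.4 CPM in the same libraries. The remaining libraries, of wild-type mice 7267059 and 9083373 and SCA3 mice 7267054 and 9083515, lay between these for Tac1 (2.425, 5.53, 4.05 and 5.74 CPM). Their Drd2 also lay between, at 0.970, 3.45, 2.54 and 4.86 CPM. Pdyn and Drd1 did not go together in all of them. Mouse 9083515 had the highest Pdyn of all 13 libraries (3.225 CPM) beside a low Drd1 (0.427), and mouse 7267054 had Pdyn at 1.6 and Drd1 at 0.368 CPM. Penk, Ppp1r1b and Adora2a did not share this pattern, with 77.5 to 97.4, 68.7 to 113 and 1.21 to 2.49 CPM over all 13.

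The genes most like the 9 over all 53 libraries were found by Pearson correlation of log2 CPM with the mean of the members' standardised values. They were Gng7 (r = 0.99), Adcy5 (0.99), Lrrc10b (0.99), Rasd2 (0.98), Gpr52 (0.98), Traip (0.98), Sh2d5 (0.98), Actn2 (0.98), Dgkb (0.97) and Pde7b (0.97). The libraries of a region share their origin, so these values describe mainly the regional order. Gng7 and Adcy5, which encode the G protein subunit and the adenylyl cyclase of striatal dopamine signalling, averaged 790 and 948 CPM in wild-type striatum and 27.9 and 60.1 CPM in cerebellum. Lrrc10b was the most restricted of them, with 133 CPM in striatum, 46 in cortex, 1.25 in brainstem and 0.411 in cerebellum. In SCA3 striatum their log2 fold changes lay between 0.34 (Traip) and 0.61 (Gng7) and none was called, with FDRs from 0.054 (Dgkb) to 0.46 (Lrrc10b).

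Within the 13 striatal libraries, after removal of the genotype means, the genes most like the 9 included Pde1b, Rarb, Gnb5, Gng7, Actn1, Lzts3 and Bcl11b, with r of 0.99 each. Of these Actn1 was called higher in SCA3 striatum (log2 fold change 0.48, FDR = 0.045). The most opposite were Prr13 (r = -0.98) and, with r from -0.97 to -0.96, Tmem25, Nmnat2, 1810041L15Rik, Myl6b, Parva, Trim67 and Fam214b. Each was lower in SCA3 striatum, and all except Nmnat2 (-0.27, FDR = 0.083) were called, from -0.40 for Fam214b (FDR = 0.0001) to -1.16 for 1810041L15Rik (FDR = 0.026).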

How the data were processed

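RNA of brainstem, cerebellum, cortex and striatum was sequenced from 53 libraries, grouped by the region and genotype in the labels. The authors deposited a table of whole-number read counts for each gene. Per their notes and methods, reads were trimmed with cutadapt 1.10, aligned to GRCm38 with STAR 2.3.0e and counted per RefSeq gene with HTSeq 0.6.1 without strand, and genes averaging at least 4 CPM were kept, so a gene must be expressed somewhere to be listed. With 31.7 to 76.7 M counts a library, counting error is small for all but the cerebellar and brainstem values near 1 CPM.

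Counts were TMM normalised and fitted with edgeR 4.0.16 (R 4.3.3) over all libraries in 8 groups with likelihood ratio tests, as in the study's methods. P-values were adjusted by Benjamini-Hochberg over all 12372 genes. Log2 CPM used a prior count of 2. Exon lengths and positions are from GENCODE annotation of GRCm38. The fit was tested on simulated data. Alternatives were DESeq2 1.42.0, the quasi-likelihood F test of edgeR, limma-voom (limma 3.58.1) with and without the mouse as a block, RLE size factors, at least 10 counts in every library, RIN as a covariate, a RIN of at least 7, the mouse number series, a region alone, a thalamus score, and each mouse left out. The projection neuron score and leaving out the 2 libraries with the highest thalamus sums were chosen after seeing the data. The members and gene lists were chosen with earlier results of these data known.

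Genes named were the 9 members; from each list those called in striatum (at most 4), otherwise the highest in wild-type striatum; the 10 genes most like the members over all libraries, and the 8 most like and 8 most opposite in striatum. Some genes that this rule names are not reported here. Atxn3 was added as a check. The same mouse gave several libraries, so libraries are paired over regions. Over pairs of regions, the deviations of a mouse's libraries from their groups had mean correlations of 0.0904 to 0.186. The main fit gave each gene 1 spread shared by all 8 groups and took libraries of a mouse as independent. P-values and SEs therefore measure a spread pooled over regions, not that of striatum alone. For Tac1 the SE was 0.57 in striatum and 0.56 in cerebellum, where its wild-type values spread 53.9-fold. List genes absent from the table (24, such as Drd3, Oprm1 and Isl1) were not analysed here, nor were promoter windows of Penk, Adora2a and Ppp1r1b.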

Additional observations from a re-analysis of the deposited data

Results flagged for a closer look

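In 80 groups of 5 to 8 libraries (each of the 9 genes in each region and genotype, and the 4 striatal ratios), 3 held a library whose gap to the next, relative to the range of its group, passed Dixon's 95% value. Chance alone gives about 1 in 20 groups. Drd1 was at 4.01 CPM in wild-type brainstem of mouse 7267055, where the other 7 libraries lay between 0.806 and 2.26 CPM. Drd1 was at 1.1 CPM in SCA3 cerebellum of mouse 9082853, against 0.296 to 0.441 CPM in the other 5, and this library also held the highest Tac1 and Drd2 of the SCA3 cerebella. Ppp1r1b was at 113 CPM in wild-type cerebellum of mouse 9083371, against 68.7 to 87.2 CPM in the other 6.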

How the results depend on the processing

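The number of the 9 genes called in SCA3 against wild-type stayed at 0 in brainstem, cerebellum and cortex and for region dependence under every alternative run. In striatum it was 0 except that Tac1 was called with the thalamus score as a covariate (1 gene) and with the projection neuron score (1 gene), and that Pdyn was called beside it with the thalamus score without mouse 9082857 (2 genes). Striatum over cortex gave 7 genes, but 3 in the mice of the largest number series. With the mouse as a replicate block, limma-voom called 0 of 9 for genotype in each region, and 9, 9 and 7 for striatum over brainstem, cerebellum and cortex, and the fixed replicate block in edgeR gave the same 9, 9 and 7 but 24 in place of 26 calls in the order of the other regions, losing Tac1 and Drd2 between cortex and brainstem; the block changed no other call. That order gave 24 calls with limma-voom and in the largest number series and 25 with RIN as a covariate, losing calls of Drd1, Penk and Tac1. The direction of striatal fold changes held in 247 of 251 alternative values, and turned for Drd2 (-0.11), Adora2a (-0.039), Penk (-0.047) and Pde10a (-0.061) with the projection neuron score. The filter on low counts removed Pdyn. None of the values that follow was called.

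With the projection neuron score, cortical log2 fold changes turned for Drd1 (-0.016), Pdyn (-0.023), Drd2 (0.032) and Pde10a (0.019). With limma-voom they turned for Drd1 (-0.074) and Pdyn (-0.037) in cortex and Pdyn in cerebellum (-0.23), and with the random replicate block for Drd1 (-0.043), Pdyn (-0.0295) and Pde10a (0.0027) in cortex and Pdyn in cerebellum (-0.17). In the largest number series Tac1 (0.27) and Drd2 (0.15) turned in brainstem, Ppp1r1b (-0.0040) and Pde10a (0.10) in cerebellum and Ppp1r1b (-0.050) in cortex. The number series as a covariate turned Drd2 (0.042), Adora2a (0.038) and Pde10a (0.037) in cortex, RIN as a covariate Ppp1r1b in cortex (-0.018), and a RIN of at least 7 Tac1 (0.019) and Pdyn (0.075) in brainstem. The causes were not tested. Leaving out each mouse turned cortical values within ranges of -0.23 to 0.24 for Drd1, -0.038 to 0.43 for Tac1, -0.14 to 0.25 for Pdyn, -0.34 to 0.12 for Drd2, -0.37 to 0.16 for Adora2a, -0.39 to 0.059 for Penk, -0.28 to 0.16 for Ppp1r1b, -0.25 to 0.27 for Rgs9 and -0.30 to 0.12 for Pde10a. In brainstem the ranges were -0.15 to 0.52 for Drd1, -0.12 to 0.041 for Tac1, -0.24 to 0.10 for Pdyn and -0.16 to 0.066 for Drd2, and in cerebellum -0.47 to 0.41 for Pdyn and -0.15 to 0.032 for Pde10a.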

Other observations

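The level of Tac1 relative to the mean log2 CPM of the other 8 genes was -0.96 to -0.79 in the 5 SCA3 striatal libraries and -1.33 to -0.96 in the 8 wild-type libraries, so that the groups nearly touched without overlapping. Set against the same 8 genes, 0.0971% of 12364 genes did not overlap between the groups. Genes that do not vary with the 8 take on their spread here, so this share cannot say how rare the Tac1 result is among genes that do. For each of the other 8 genes set against the rest in this way, the groups overlapped. Penk lay at 1.24 to 1.51 in SCA3 and 1.40 to 1.61 in wild-type, and Pdyn at -1.89 to -1.62 and -2.48 to -1.15.

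Over all 53 libraries, each gene also followed the mean of the other 8, with Pearson r from 0.82 for Ppp1r1b and 0.83 for Tac1 to 0.99 for Rgs9.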
